A study of Homo sapiens with 6 samples.

Results

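The genes described here are 7 members of the machinery that commits a cell to division: the cyclin-dependent kinase (CDK) genes CDK2, CDK6 and CDK15, the D-type cyclin genes CCND1 and CCND3, and RBL1 and RBL2, the genes of the pocket proteins p107 and p130, which are relatives of the retinoblastoma protein. They are 7 of 14884 genes named on the array, each has 1 probe set, and all 7 lie among the 10640 genes bright enough to be tested. They were picked by family and because they differed between the siRNA groups on these same arrays, so their differences are given as a description. No p-value is printed for a member, and where members are counted among the genes that limma called, the counts describe the choice of members and support nothing. RNA came from MDA-MB-231, an established human breast cancer line without hormone receptors or HER2 amplification, whose p53 is a mutant form. Cells were grown in DMEM with fetal bovine serum and transfected with Lipofectamine RNAiMAX and 1 of 3 small interfering RNAs (siRNAs): siNC, the control, siATM, against the DNA damage kinase ATM, or sip53, against p53. All groups therefore share the transfection. There are 2 samples a group, 6 in all, each on its own Affymetrix Human Gene 2.0 ST array. Neither the time after transfection nor the siRNA sequences are given in the sources used here, 1 siRNA name stands for each target, and the depth of knockdown was not analysed here. Whether the paired samples of each siRNA are separate cultures is not stated, so a p-value here reflects the spread between those samples, and that spread may be technical only.

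D-type cyclins are made in response to growth signals and bind CDK4 or CDK6. The active kinases phosphorylate the retinoblastoma protein RB1 and the pocket proteins p107 and p130, which otherwise hold E2F transcription factors at their target promoters in a repressed state. Freed E2F drives cyclin E and the genes of DNA replication, and cyclin E and then cyclin A activate CDK2. In resting cells p130, and in cycling cells p107, also sits in the DREAM complex with the MuvB proteins, which silences cell-cycle genes. RBL1 is itself an E2F target, and p130 is typically more abundant in resting cells. CDK15 belongs to the PFTAIRE kinases, with CDK14 as its nearest relative, and is much less studied.

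The differences of these picked members from siNC were not alike with the 2 siRNAs. With siATM the genes CDK6, RBL1, CDK2 and CCND1 were lower than with siNC, by 1.60-fold, 1.43-fold, 1.36-fold and 1.27-fold, while RBL2 and CCND3 were higher by 1.20-fold and 1.17-fold. With sip53 CDK15 was 1.99-fold higher, and the other 6 members differed from siNC by between 1.01-fold and 1.16-fold. Within each pair of relatives the members went opposite ways with siATM, RBL1 lower and RBL2 higher, CCND1 lower and CCND3 higher. RBL1 and RBL2 also lay on opposite sides of siNC with sip53, by −0.19 and 0.15 on the log2 scale. CCND1 and CCND3 were both higher with sip53, by 0.21 and 0.14. Levels are log2 values of the deposited table, and a difference of 1 on that scale is a doubling. A lower value in such a culture can mean fewer cells in the phase that makes the transcript or less transcript per cell, and these arrays cannot tell the 2 apart.

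**Figure D1:**
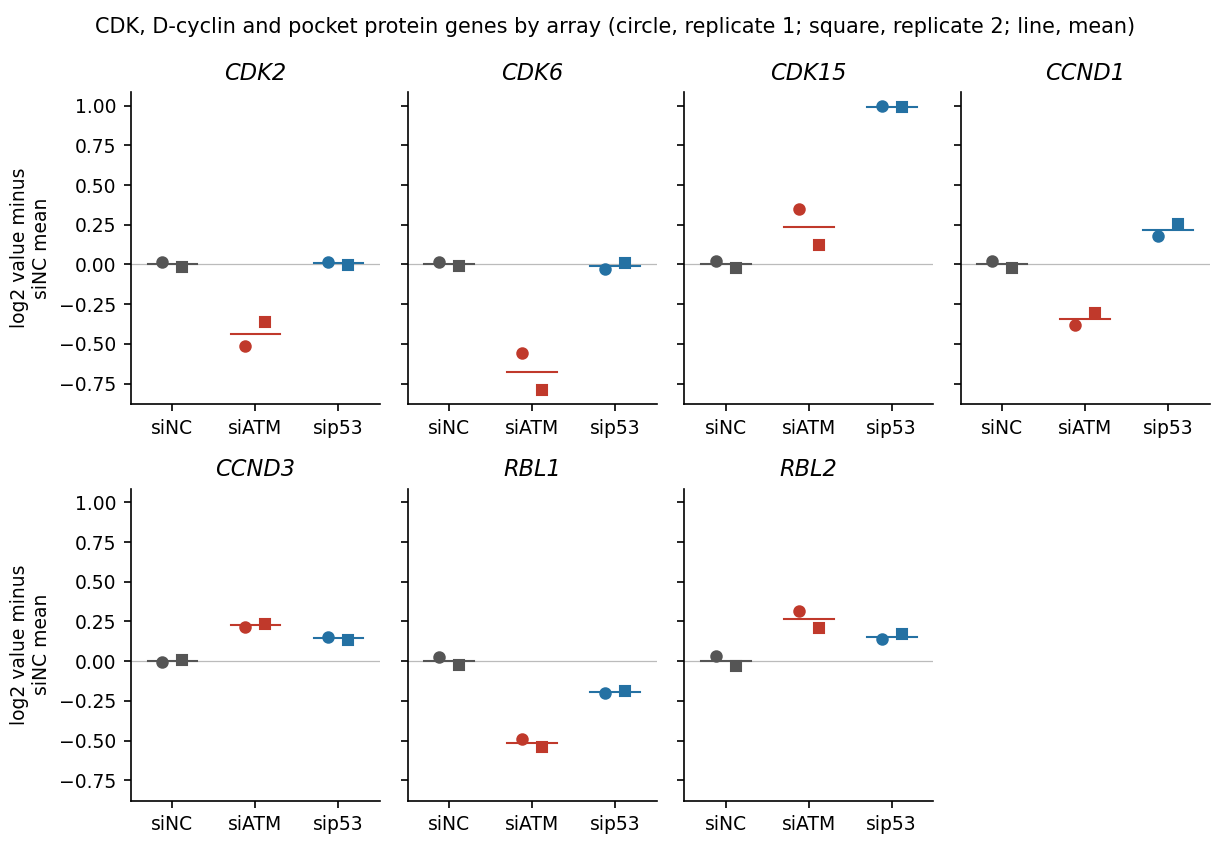
Each panel shows 1 gene, with the 3 siRNA groups on the x axis and the log2 value minus the mean of the 2 siNC arrays on the y axis, a circle for replicate 1, a square for replicate 2 and a line for the group mean. Both siATM arrays lie below both siNC arrays for CDK2, CDK6, CCND1 and RBL1 and above them for CDK15, CCND3 and RBL2, and the largest distance from siNC is that of CDK15 with sip53, at 0.99.

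CDK6, the kinase that partners the D-type cyclins, had log2 values of 9.95 and 9.92 on the siNC arrays, 9.37 and 9.15 on the siATM arrays, and 9.91 and 9.95 on the sip53 arrays. Both siATM arrays were below all 4 others, and the sip53 arrays overlapped the siNC arrays. The difference of siATM from siNC was −0.68 (moderated standard error, SE, 0.08) on the log2 scale, the 202nd largest in size among the 10640 genes tested. The 2 siATM arrays were themselves 0.23 apart, the widest gap within a group among all 7 members, and the difference was −0.56 or −0.79 with 1 or the other left out. With sip53 the difference was −0.01 (SE 0.08).

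CDK2, which works with cyclins E and A from the start of S phase, was at 10.78 and 10.74 with siNC, at 10.24 and 10.39 with siATM, and at 10.78 and 10.76 with sip53. It had the same layout as CDK6, with the siATM arrays low and the sip53 arrays overlapping the siNC arrays. Its log2 difference was −0.44 (SE 0.07) with siATM and 0.01 (SE 0.07) with sip53. Leaving out 1 siATM array moved the first value to −0.52 or −0.36.

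CDK15 went another way. Its log2 values were 7.56 and 7.51 with siNC, 7.88 and 7.66 with siATM, and 8.53 and 8.53 with sip53. The sip53 arrays stood clear above the other 4 and differed from each other by 0.0053. The log2 difference from siNC was 0.99 (SE 0.08) with sip53, the 10th largest in size of all genes tested. With siATM it was 0.23 (SE 0.08), and the 2 siATM arrays were 0.22 apart, nearly as far as the siATM mean lay from the siNC mean. Leaving out 1 siATM array gave 0.12 or 0.35. CDK14, its relative among the PFTAIRE kinases, had means of 7.26 with siNC, 7.06 with siATM and 7.07 with sip53, and its differences of −0.20 and −0.19 (SE 0.10 each) did not pass the test (adjusted p = 0.193 and 0.287).

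CCND1 encodes cyclin D1, the D-type cyclin most often amplified in breast cancer. Its log2 values were 11.44 and 11.40 with siNC, 11.04 and 11.12 with siATM, and 11.60 and 11.68 with sip53. The 3 groups did not overlap, with siATM lowest and sip53 highest. The log2 difference from siNC was −0.34 (SE 0.06) with siATM and 0.21 (SE 0.06) with sip53. Of the 7 members, CCND1 was alone in lying below siNC on both arrays of one siRNA and above it on both arrays of the other.

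CCND3 encodes cyclin D3 and was at 7.77 and 7.78 with siNC, 7.99 and 8.01 with siATM, and 7.92 and 7.91 with sip53. Its replicates were no more than 0.02 apart in any group. The widest gap within a group was smaller for CCND3 than for any other member, although within sip53 CDK15 and RBL1 were tighter. It was higher than siNC with both siRNAs, by 0.23 (SE 0.05) with siATM and 0.14 (SE 0.05) with sip53. These SEs are larger than the spread of its own arrays because limma draws each gene's variance towards that of all genes. CCND2, the remaining D-type cyclin gene, lay near the brightness limit of 5.96 in every group, with log2 values between 5.90 and 6.15 on the 6 arrays, and did not pass the test in any comparison (adjusted p = 0.945, 0.914 and 0.830).

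RBL1 was at 9.68 and 9.63 with siNC, 9.16 and 9.11 with siATM, and 9.45 and 9.47 with sip53. The 3 groups did not overlap, and sip53 lay between the other two. The log2 difference was −0.51 (SE 0.06) with siATM and −0.19 (SE 0.06) with sip53. RBL2 was at 8.17 and 8.11 with siNC, 8.46 and 8.35 with siATM, and 8.28 and 8.31 with sip53. Its groups were ordered the other way round, with siATM highest, and none overlapped. The log2 difference was 0.26 (SE 0.06) with siATM and 0.15 (SE 0.06) with sip53. RB1, the founding member of the family, was at 10.91 and 10.93 with siNC, 10.92 and 10.84 with siATM, and 10.88 and 10.90 with sip53. Its differences of −0.05 and −0.03 (SE 0.06 each) did not pass the test (adjusted p = 0.604 and 0.766), with 95% intervals from −0.18 to 0.09 with siATM and from −0.17 to 0.10 with sip53. These intervals are for RB1 alone, and they do not test whether RB1 and RBL1 differ in their response.

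The promoters of the 2 pocket protein genes are shown because the genes moved in opposite directions and because p107 and p130 act on E2F sites. Each is the 250 bases before the transcription start in RefSeq on GRCh38.p14, written in the direction of the gene, with E2F-type motifs in capitals. RBL2 has a further start whose window is not shown.
RBL1 (chr20:37095998-37096247, minus strand): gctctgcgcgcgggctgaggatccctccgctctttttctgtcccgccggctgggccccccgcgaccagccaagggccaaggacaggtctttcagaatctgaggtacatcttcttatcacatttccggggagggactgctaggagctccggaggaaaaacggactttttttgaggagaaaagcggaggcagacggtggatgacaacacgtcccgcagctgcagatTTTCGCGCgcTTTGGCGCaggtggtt
RBL2 (chr16:53434221-53434470, plus strand): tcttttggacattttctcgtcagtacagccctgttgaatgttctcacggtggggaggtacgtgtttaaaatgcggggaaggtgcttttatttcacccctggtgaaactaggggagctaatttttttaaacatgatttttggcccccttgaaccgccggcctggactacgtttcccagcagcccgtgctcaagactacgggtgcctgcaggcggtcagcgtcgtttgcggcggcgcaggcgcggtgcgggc
The motif was searched as TTTCCCGC, TTTCGCGC, TTTGCCGC or TTTGGCGC on both strands. These letters overlap when a site reads as a motif on each strand. RBL1 holds 2 of them, TTTCGCGC starting 26 bases before the start site and TTTGGCGC starting 16 bases before it, both in the direction of the gene. At least 1 motif is found in 2.79% of all 35116 promoter windows of this length and 2 or more in 0.122%. Neither window of RBL2 holds one, nor do the 2 windows of CDK6, the 3 of CCND3 or the 3 of CDK15. RefSeq windows were matched for 5 of the 7 members. A match describes the letters only, and the lack of one says nothing about the factor.

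The CDK15 promoter is shown for contrast with CDK6, since these members have the largest difference for each siRNA. The 250 bases before the first listed start are 32.4% G and C for CDK15 and 80% for CDK6. The further windows hold 38.4% and 42.8% for CDK15 and 67.6% for CDK6. The first windows of CCND3, RBL1 and RBL2 hold 74.4%, 59.2% and 55.2%. The share over all windows was not computed, and a link of this composition to the siRNA differences was not tested.
CDK15 (chr2:201806179-201806428, plus strand): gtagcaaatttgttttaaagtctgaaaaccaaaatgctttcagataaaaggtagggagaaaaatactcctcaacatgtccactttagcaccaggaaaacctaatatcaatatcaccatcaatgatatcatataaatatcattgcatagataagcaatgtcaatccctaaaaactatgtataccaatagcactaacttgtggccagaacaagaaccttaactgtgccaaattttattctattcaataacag
CDK6 (chr7:92836574-92836823, minus strand): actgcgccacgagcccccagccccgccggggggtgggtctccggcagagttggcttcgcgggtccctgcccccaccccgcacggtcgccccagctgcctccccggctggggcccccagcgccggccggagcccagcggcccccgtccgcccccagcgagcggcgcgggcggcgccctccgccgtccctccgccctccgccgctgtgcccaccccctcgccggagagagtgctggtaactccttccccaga
A CCAAT box, the letters CCAAT on either strand, which the factor NF-Y binds, starts 69 bases before this CDK15 start. CCAAT occurs in 32% of all windows. Among the other members with windows it occurs in CCND3 and in the RBL2 window not shown, and not in CDK6 or RBL1. Neither the CHR element TTTGAA, found in 13.3% of windows, nor the forkhead motif TGTTTAC, found in 2.98%, occurs in any of the 11 member windows.

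A gene was called changed where its adjusted p from limma over all 10640 genes was below 0.05. With siATM, 2 of the 7 members (CCND3 and RBL2) were called higher and 4 (CDK2, CDK6, CCND1 and RBL1) lower, where 25.5% of all genes tested were called, 12.5% higher and 13% lower. CDK15 was not called with siATM. The siATM and siNC arrays did not overlap for 7 of 7 members, against 62.7% of all genes. With sip53, 1 member, CDK15, was called higher and 0 lower, where 10.6% of all genes were called, 5.47% higher and 5.11% lower, and the arrays did not overlap for 5 of 7 against 58.9% of all genes. At an unadjusted p below 0.05 the sip53 counts were 4 higher and 1 lower, where 26.4% of all genes passed, 14.6% higher and 11.8% lower. As the members were picked from these contrasts, these counts carry no weight of their own. Without a filter on dim genes the 2 members called higher with siATM lost their call, as they did without either siNC array, and without siNC replicate 1 the called members were CDK2, CDK6 and RBL1. RBL2 also lost its call without siATM replicate 1, and CCND3 without siATM replicate 2, where CDK15 gained one. With only the genes above the 70th percentile of mean level or with a variance trend, CDK15 was also called higher with siATM, and CCND1 and RBL1 were also called with sip53, the first higher and the second lower, and RBL1 also with each array centred on the median.

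**Figure D2:**
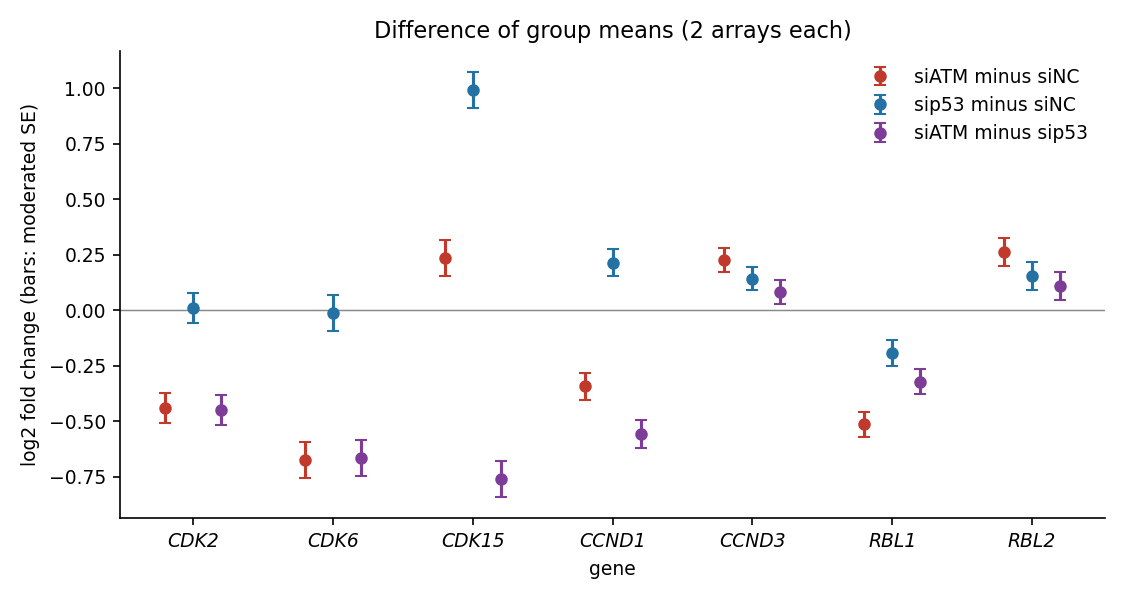
For each of the 7 genes on the x axis, the y axis gives the log2 difference of group means for siATM minus siNC (red), sip53 minus siNC (blue) and siATM minus sip53 (purple), with bars for the moderated SE. CDK6 and CDK2 have blue points at −0.01 and 0.01 and red points at −0.68 and −0.44, while CDK15 has its blue point at 0.99 and its red point at 0.23.

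The differences from siNC in the 2 siRNA groups share the same control arrays, so they are not independent of each other. The direct difference between the 2 siRNA groups does not use those arrays. On it, 0 of 7 members were called higher with siATM than with sip53 (0 at an unadjusted p below 0.05, which 19.5% of all genes passed in that direction) and 5 lower, where 30.3% of all genes were called, 14% higher and 16.3% lower, and the arrays did not overlap for 7 of 7, against 65.4% of all genes. CDK15 had a log2 difference of −0.76 (SE 0.08) and CDK6 one of −0.66 (SE 0.08). CCND1 followed at −0.56 (SE 0.06), CDK2 at −0.45 (SE 0.07) and RBL1 at −0.32 (SE 0.06). CCND3 and RBL2 were higher with siATM by 0.08 (SE 0.05) and 0.11 (SE 0.06) and were not called. CDK15 and CDK6 reached their similar direct differences from opposite sides, the first through a high sip53 level and the second through a low siATM level.

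The shapes of the members over the 6 arrays were compared by distance. Each gene was centred on its own mean, and the Euclidean distance between the 6 centred log2 values was taken, so a small distance means a like shape and a like size. RBL2 and CCND3 were closest, at 0.11, followed by CDK2 and CCND1 at 0.22 and CDK2 and RBL1 at 0.25. CDK15 and RBL1 were farthest apart, at 1.21. Symbols of non-coding and LOC genes were left out. Among the other genes tested the nearest to CDK6 was HMGN2, which encodes a nucleosome-binding protein, at 0.06, and to CDK2 it was C12orf75, at 0.07. Nearest to RBL1 were DBF4B and CEP55, at 0.06 each, genes that encode an activator of the replication kinase CDC7 and a protein of cell abscission. ZNF138 and PEG10 were nearest to CDK15, at 0.20 and 0.23, with log2 means of 9.45 and 10.01 with sip53 against 8.53 and 9.07 with siNC. CCDC77 was nearest to CCND1 (0.06), CTSA, the gene of a lysosomal protease, to CCND3 (0.04) and RGS5 to RBL2 (0.04). With 10640 genes and 6 arrays, near matches are plentiful, and these are given as a description.

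The other genes of the pathway were tested with limma. They form 8 lists of 121 genes in all, of which 96 are named on the array and 93 were tested, and they were listed with earlier results on replication and mitosis genes known. With siATM, 41 of the 93 were lower and 2 higher, with a median log2 fold change of −0.15 against −0.00062 over all genes tested, of which 13% were called lower and 12.5% higher. Of the 10 direct partners and relatives tested, 4 were lower with siATM (CCNE1, CCNE2, CCNA2 and E2F1). The 6 not called were CDK4, E2F2 and E2F3 and the relatives CCND2, RB1 and CDK14. CCNE1 and CCNE2, the cyclins E that activate CDK2, fell by 0.48 (SE 0.05, adjusted p = 0.00140) and by 0.39 (SE 0.06, adjusted p = 0.00440) on the log2 scale. CCNA2, the cyclin A that follows, was at 11.87 on both siNC arrays and at 11.31 and 11.28 on the siATM arrays. Its log2 fold change was −0.58 (SE 0.05, adjusted p = 0.000802). E2F1 fell by 0.39 (SE 0.06, adjusted p = 0.00393). CDK4, the other partner of the D-type cyclins, was at 11.75 and 11.79 with siNC and 11.70 and 11.72 with siATM, and its difference of −0.06 (SE 0.06) did not pass the test (adjusted p = 0.468). E2F2 (−0.20, adjusted p = 0.193) and E2F3 (−0.15, adjusted p = 0.117) did not pass either. The 95% interval for CDK4 ran from −0.19 to 0.07. Whether CDK4 and CDK6, or RB1 and RBL1, differ in their response was not tested.

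**Figure D3:**
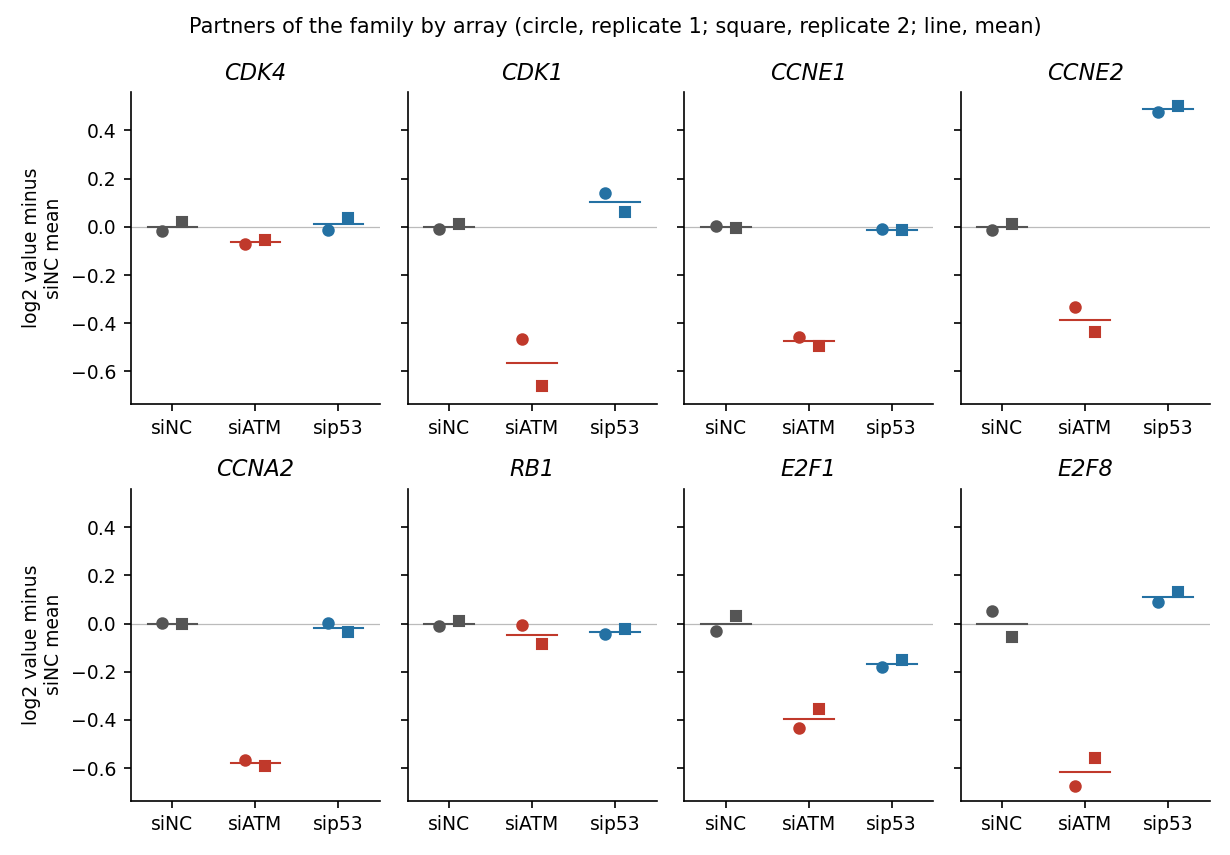
Each panel shows 1 gene, with the 3 siRNA groups on the x axis and the log2 value minus the siNC mean on the y axis. A circle marks replicate 1, a square replicate 2 and a line the group mean. CDK1 and E2F8 are shown although they are not among the partners and relatives counted in the text. Of those, CCND2, E2F2, E2F3 and CDK14, which were not called with siATM, are not shown. Both siATM arrays lie below both siNC arrays for CDK1, CCNE1, CCNE2, CCNA2, E2F1 and E2F8. They also do for CDK4, whose mean difference is −0.06 and was not called, and they overlap for RB1. CCNE2 lies 0.49 above siNC with sip53.

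The falls with siATM were unevenly spread over the lists. Of 19 other CDK genes tested, 2 were lower and 1 higher, with a median of 0.04. CDK1, the mitotic kinase, fell by 0.56 (SE 0.08, adjusted p = 0.00257). CDKL1 (−0.39) and CDK7, of the CDK-activating kinase (0.23), were called by a small margin (adjusted p = 0.0315 and 0.0356). Both lost the call without a filter on dim genes and with only the siATM and siNC arrays fitted, CDK7 without any of the 6 arrays and CDKL1 without any except siATM replicate 2 (adjusted p up to 0.183 and 0.156). Of 23 other cyclin genes, 7 were lower and 0 higher (2 higher at an unadjusted p below 0.05). CCNB2, a mitotic cyclin B, fell by 0.60 and CCNF by 0.46, while the remaining 16 were not called and the list's median was −0.05. Of 12 regulators of CDK activity, 5 were lower and 1 higher. The phosphatase genes CDC25C (−0.76) and CDC25A (−0.55), whose products switch CDKs on, fell, and CKS1B fell by 0.39. The phosphatase gene CDC25B was not called (−0.11, limma adjusted p = 0.232). WEE1, whose product holds CDK1 and CDK2 inactive, fell too, by 0.28 (limma adjusted p = 0.0106), but lost its call without either siNC array. CABLES1, which encodes a CDK-binding adaptor, rose by 0.47 (SE 0.06, adjusted p = 0.00212). CKS1B lost its call without siNC replicate 1 (adjusted p = 0.0530). Of 8 CDK inhibitor genes listed, 2 were named and 1 was tested: CDKN3, which encodes a phosphatase that acts on CDKs and which fell by 0.48.

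Among 8 genes of RB1, the E2F factors and their DP partners, 3 were lower and 0 higher, with a median of −0.17. In this list and the next 3, limma called 0 genes higher at an unadjusted p below 0.05 too. Besides E2F1 these were the repressor E2F genes E2F8 (−0.62, SE 0.07) and E2F7 (−0.49, SE 0.07). Of 9 genes of MuvB, DREAM and the factors that take over from it, 4 were lower and 0 higher, with a median of −0.20: FOXM1, which drives mitotic genes (−0.56), LIN52 (−0.50), MYBL1 (−0.40) and LIN9 (−0.34). LIN52 is the MuvB subunit through which pocket proteins are bound. LIN9 lost its call without siNC replicate 2 or siATM replicate 2 (adjusted p up to 0.0910). Of 18 E2F target genes of S phase, 16 were lower and 0 higher, with a median of −0.47. They share CCNE1, CCNE2 and E2F1 with the lists above. MCM3, a subunit of the replicative helicase, was at 11.23 and 11.21 with siNC and at 10.15 and 10.12 with siATM. Its log2 fold change was −1.09 (SE 0.05, adjusted p = 0.000102). MCM10 (−0.77), TYMS (−0.76) and GINS2 (−0.75) came next. Of 6 proliferation markers, 6 were lower, from BUB1 (−0.67) to TOP2A (−0.34), with MKI67 at −0.48. TOP2A lost its call without siNC replicate 1, where 5 were lower, and the part of this shift in the members' values was not tested.

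**Figure D4:**
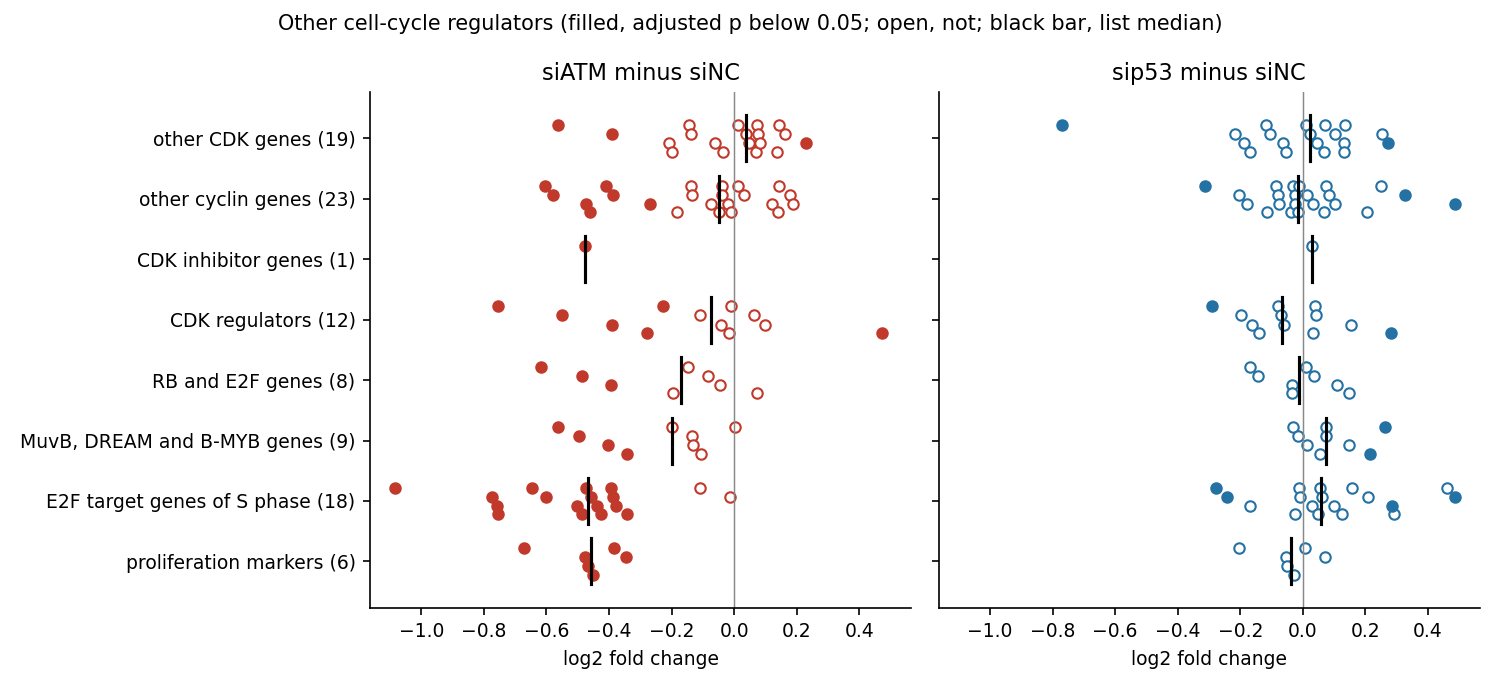
Each point is 1 gene of a list, placed by its log2 fold change for siATM minus siNC (left) and sip53 minus siNC (right), filled where adjusted p was below 0.05, with a black bar at the list median and the number of genes tested in brackets. On the left 16 of 18 E2F target genes and 6 of 6 proliferation markers are filled and below 0, and on the right the 6 proliferation markers are open and their median is −0.04.

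E2F-type motifs were counted in the same 250-base windows. Of the 41 listed genes that were lower with siATM, 33 had windows, and 11 of these (33.3%) held a motif, against 6 of 51 listed genes (11.8%) that were not lower and 3.4% of all 27305 genes with windows. The lists hold E2F targets by choice, so this is a description of them. CCAAT occurred in 81.8% of the 33, 45.1% of the 51 and 37% of all genes, TTTGAA in 36.4%, 19.6% and 16.1%, and TGTTTAC in 6.06%, 1.96% and 3.66%. All sites of 7 of the genes named above are set beside those of RBL1, with the motif in capitals and up to 10 bases on each side, each read in the direction of the motif.
RBL1 (chr20:37096006-37096033, minus strand): agctgcagatTTTCGCGCgctttggcgc
RBL1 (chr20:37095998-37096023, minus strand): tttcgcgcgcTTTGGCGCaggtggtt
CDK1 (chr10:60778340-60778367, plus strand): ttcctctttcTTTCGCGCtctagccacc
CDC25A (chr3:48188444-48188471, minus strand): gtggattccgTTTGGCGCcaactaggaa
E2F1 (chr20:33686388-33686415, minus strand): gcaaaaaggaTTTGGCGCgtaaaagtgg
E2F1 (chr20:33686401-33686428, plus strand): ccaaatccttTTTGCCGCgaaagagcca
LIN52 (chr14:74084921-74084948, plus strand): ggaacctcgtTTTCCCGCcgacggttgg
MCM3 (chr6:52284899-52284926, minus strand): ggatggtacgTTTCCCGCcaccgcgggg
GINS2 (chr16:85688968-85688995, plus strand): cggccgccgtTTTCCCGCcacggcgaga
TYMS (chr18:657604-657631, minus strand): ccgcgcgcctTTTCCCGCggccgtcccg
The pair in RBL1 overlaps in its flanks, so both of its runs cover the same stretch. CDK1 with TTTCGCGC and CDC25A and E2F1 with TTTGGCGC carry the letters of one or the other RBL1 motif, E2F1 has a further motif, TTTGCCGC, and LIN52, MCM3, GINS2 and TYMS carry TTTCCCGC.

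With sip53 the share of listed genes called, 12.9%, was near the 10.6% of all genes. Of the 93 genes, 7 were higher and 5 lower, with a median of 0.01, and of 0.01 over all genes tested, of which 582 were higher and 544 lower. With each array centred on the median of the tested genes the splits were 4 higher and 6 lower in the lists and 410 higher and 668 lower over all genes. CCNE2 was the member of these lists with the largest rise, from 8.68 and 8.70 to 9.16 and 9.19. The log2 fold change was 0.49 (SE 0.06, adjusted p = 0.00431). CCNE2 thus rose with sip53 and fell with siATM. CDK19, a kinase of the Mediator complex, had the largest fall, from 8.91 and 9.01 to 8.25 and 8.12. Its log2 fold change was −0.77 (SE 0.07, adjusted p = 0.00213). These 2 were the only listed genes called when any 1 of the siNC or sip53 arrays was left out, and also without a filter on dim genes. The other 10 calls were small, between −0.31 and 0.33. CDK17 (0.27), CCNJL (0.33), WEE1 (0.28), MYBL2 (0.26), LIN54 (0.21) and RRM2 (0.28) were higher, and CCNG1 (−0.31), CDC25B (−0.29), RRM1 (−0.28) and TYMS (−0.24) lower, and each lost its call without any 1 of those 4 arrays (adjusted p up to 0.217). Of the 6 proliferation markers limma called 0, as in all 14 alternative settings, and 0 higher and 0 lower at an unadjusted p below 0.05, with values from −0.20 to 0.07. CDK4 (0.01), CCNE1 (−0.01), CCNA2 (−0.02) and E2F1 (−0.17) did not pass the test.

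Compared directly, 43 of the 93 listed genes were lower and 5 higher with siATM than with sip53, which is 46.2% and 5.38% of them, against 16.3% and 14% of all genes. Of the 18 E2F targets 17 were lower, of the 9 MuvB and DREAM genes 8, and of the 6 proliferation markers 5. These 3 counts were as low as 14, 6 and 4 with 1 array left out. CCNE2 had a log2 fold change of −0.87 (SE 0.06, adjusted p = 0.000269), and CDK19 one of 0.63 (SE 0.07, adjusted p = 0.00103). WEE1, whose product holds CDK1 and CDK2 inactive, was lower by 0.56 and FOXM1 by 0.71. RB1 (−0.01, adjusted p = 0.902) and CDK4 (−0.07, adjusted p = 0.372) again did not pass the test. E2F1 was lower (−0.23) but lost its call without a filter on dim genes, without siATM replicate 1 and without either sip53 array (adjusted p up to 0.135).

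The labelled cell type was checked against its markers. Of 5 markers of mesenchymal breast cancer lines, 4 were named and all 4 were above the brightness limit, with VIM between 11.59 and 11.66. Of these 4, 1 was called higher with siATM, FN1, which encodes fibronectin, at 12.87 against 12.44 with siNC (log2 difference 0.43, SE 0.05, limma adjusted p = 0.00201). The hormone receptor genes ESR1 and PGR lay below the limit, at most 5.93 and 4.99, but the other 5 luminal genes named lay above it, with KRT18 between 11.74 and 11.96, KRT19 between 10.46 and 10.86, EPCAM between 8.93 and 9.09, GATA3 between 8.06 and 8.77 and AGR2 between 7.67 and 8.88. Of the 5 luminal genes tested, 3 were called higher with siATM and 2 with sip53, against 12.5% and 5.47% of all genes tested. The mean log2 value of all 7 luminal genes named ran from 8.23 to 8.24 with siNC, 8.43 to 8.55 with siATM and 8.39 to 8.41 with sip53. The 2 blood cell markers named had mean values of 9.41 to 9.49, 9.71 to 9.73 and 9.30 to 9.31 in the same order, and LYZ was higher with siATM. The 3 endothelial and fibroblast markers named had 6.47 to 6.52, 6.51 to 6.56 and 6.67 to 6.69, with LUM higher with both siRNAs and PECAM1 lower with siATM. The single markers named here were picked out with their values already known, and the part of these lists in the members' values was not tested.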

How the data were processed

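RNA of 6 samples, 2 each for siNC, siATM and sip53, was measured on 1 array each. The deposited table gives log2 values per probe set, with the scale read from the values, which run from 1.33 to 14.2. The authors' background correction, probe summary and normalization are not stated in the sources at hand. Once sorted, the values of the arrays lay 0.0325 apart on average, so a change in total RNA would not show. No scan date, detection call or batch could be tested, and precision is limited by having 6 arrays.

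The platform annotation named 16098 of 53617 probe sets, covering 14884 genes. For the 779 genes with several, the one with the highest mean was used. The 10640 genes with a mean of at least 5.96, the median over all probe sets, were tested. Group means were fitted to all 6 arrays with limma (version 3.58.1, R 4.3.3; 3 residual and 7.29 total degrees of freedom), two-sided, with Benjamini-Hochberg adjustment within each contrast at 0.05. The procedure was tested on simulated data.

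The members, lists and tests were chosen with earlier results of these data known. Named genes are the members, up to 4 called genes of largest change per list and contrast, and fixed direct partners and relatives. The nearest genes in shape are also named, leaving out LOC symbols and those of non-coding RNAs. TOP2A and the single cell type markers were named after their values were seen. Alternatives were the filter, normalization, centring, probe-set choice, variance moderation, samples in the fit, a replicate block and leaving out each array. Promoter sequences are RefSeq's on GRCh38.p14. The transcripts targeted by the siRNAs were not analysed here. Near-identical genes can share probes.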

Additional observations from a re-analysis of the deposited data

How the results depend on the processing

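Each member's differences were recomputed under 14 alternative settings. No called difference changed sign. The differences of CDK2 and CDK6 with sip53, which are close to 0, took the other sign in 3 and 2 of the 14. Of 294 recomputed values 272 moved by less than the spread between replicates and 22 by more, 16 of them when 1 siATM array was left out. Changing the filter, the variance moderation, the probe-set choice, the block or the arrays of the third group cannot move a member's difference. Only normalization, centring and leaving out an array of a compared group could. The 272 and the kept signs thus include many values that were fixed in advance. The number of all genes changed with siATM ran from 1437 to 2226 with 1 array left out, with the lowest values without either siNC array. For sip53 it was 481 without a filter on dim genes, 1742 with a variance trend and robust moderation, and from 272 to 1242 with 1 array left out. For siATM against sip53 it ran from 1842 to 2852. Of the other cell-cycle regulators, those changed with siATM numbered 36 to 42 with 1 array left out and those changed between siATM and sip53 numbered 37 to 47. Those changed with sip53 numbered 2 without a filter and 2 to 13 with 1 array left out. The cause of these shifts was not tested. With the replicate number as a block the counts of all genes were 2696, 1001 and 3218 and those of the regulators 43, 10 and 47 for siATM, sip53 and their difference, all within 1.5 times those without it. Same-numbered arrays deviated together with correlations of 0.04, 0.03 and 0.12. Such values cannot show whether same-numbered samples shared a day or a batch.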
